A study of Homo sapiens with 8 samples.

Results

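The metallothionein genes and MTF1, which encodes the transcription factor that senses metals, were followed in HepG2 cells, an established human hepatocarcinoma line, after inhibition of EZH1 and EZH2. Genes were taken by symbol from the expression table, which gave 7 of 25603 genes, namely MT1E, MT1F, MT1G, MT1M, MT1X, MT2A and MTF1. MT1A, a metallothionein gene outside that set of names, was also in the table and is described beside them. Of 21 metallothionein loci searched by symbol, pseudogenes included, 7 had a row, the 6 metallothioneins above and MT1A, and the others were not analysed here.

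Metallothioneins are small, cysteine-rich proteins that bind zinc and copper, and they also take up cadmium. In the liver they buffer zinc and protect against metal and oxidative stress, and their transcription rises with zinc, cadmium and glucocorticoids. When zinc is in excess, MTF1 binds metal response elements in their promoters. Zinc enters the cytosol through SLC39A (ZIP) transporters and leaves it through SLC30A (ZnT) transporters, among which SLC30A1 is a classical MTF1 target.

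Cells were exposed for 4 days to UNC1999 and valemetostat tosylate together, each at 1 µM (EZHi), or to vehicle, which was 0.2% DMSO per the labels. Both inhibitors act on EZH1 and EZH2, the enzymes of the polycomb repressive complex that methylate lysine 27 of histone H3. All cultures received dexamethasone, a glucocorticoid, and insulin with serum. There were 4 libraries of mRNA per group. The comparison asks which of these genes change when EZH1/2 activity is inhibited, and the study names its replicates as biologically independent.

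Values are deposited on a log2 scale. They were read here as corrected for transcript length, since the lowest values moved by -0.92 per doubling of length, close to the slope of -1 that a full correction gives, and all comparisons of levels between genes rest on this inference. On that basis they were also turned into an estimated FPKM, a density of fragments per length of transcript and per size of library. Read depth is unknown, since values were normalized for it. All 8 hepatocyte markers examined were present, from 156 (FGB) to 16199 (AFP) estimated FPKM. Of them 1 was called, FGB, a fibrinogen chain, which rose by 0.92 on the log2 scale (adjusted p in limma 0.0017). The fit with a replicate block, described below, called 3 higher and 1 lower. Without the block 13.1% of all genes tested were called in either direction, and with it 30%. Of 8 markers of other cell types, PTPRC, DCN, LUM and CD68 had no row, PECAM1, CDH5 and COL1A1 lay between 0.999 and 2.80 estimated FPKM, and LYZ was at 1424. CDH5, an endothelial cadherin, rose by 2.28 on the log2 scale with EZHi (adjusted p in limma 0.00411), or by 1.32 with a pseudocount of 0.5 estimated FPKM, and the part of such cells or genes in the results below was not tested. In bulk samples, fewer cells that express a gene and less RNA per cell cannot be told apart.

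Upstream sequences in the promoter table from RefSeq (GRCh38.p14) were matched for 3 of the 7 genes, MT2A, MT1X and MTF1. The 250 bases before the start of MT2A (chr16:56608334-56608583, plus strand) and MT1X (chr16:56682220-56682469, plus strand) are shown because both hold several cores of the metal response element. Capitals mark every match to TGCACNC or TGCGCNC on either strand, where N is any base.
MT2A: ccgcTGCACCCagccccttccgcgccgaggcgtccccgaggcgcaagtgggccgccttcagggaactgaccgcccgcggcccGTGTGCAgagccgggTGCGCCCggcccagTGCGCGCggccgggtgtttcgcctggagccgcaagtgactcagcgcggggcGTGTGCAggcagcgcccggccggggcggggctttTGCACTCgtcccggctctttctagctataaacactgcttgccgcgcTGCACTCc
MT1X: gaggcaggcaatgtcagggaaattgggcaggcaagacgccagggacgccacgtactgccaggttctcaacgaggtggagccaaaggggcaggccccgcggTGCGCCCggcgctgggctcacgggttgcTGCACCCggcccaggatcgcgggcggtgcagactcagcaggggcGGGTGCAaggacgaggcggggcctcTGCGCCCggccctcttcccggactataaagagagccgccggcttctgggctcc

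The MT2A window held 7 cores, of which 5 read on the plus strand and 2 on the minus strand, and none of them overlapped. The MT1X window held 4 cores, with 3 on the plus strand and 1 on the minus strand. Over 35116 promoters of the same length, 24.8% had at least 1 core, 0.37% had at least 4 and 0.0313% had at least 7. The MTF1 window had 0 cores, which says only that these letters are not in it. The windows were rich in CpG, with 32 CpG in MT2A, 22 in MT1X and 20 in MTF1 against a median of 11 over all promoters. A match is a description of sequence and was not tested for binding.

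In vehicle cells the metallothioneins spanned a wide range of levels. MT2A was the most abundant at 123 ± 20.4 estimated FPKM (SD, n = 4), followed by MT1E at 37.1 ± 5.36 (SD, n = 4) and MT1G at 21.5 ± 4.51 (SD, n = 4). MT1F stood at 7.39 ± 1.28 estimated FPKM (SD, n = 4) and MT1A at 1.59 ± 0.31 (SD, n = 4). MT1X, at 0.608 ± 0.082 (SD, n = 4), and MT1M were the lowest. MT1M was listed at 0.288 in vehicle, a value near the floor of the regularized log and not a measured level. This order, from MT2A over MT1E, MT1G, MT1F and MT1A to MT1X, was the same in 8 of 8 libraries. MT1M was listed last in each of them, in vehicle by its floor value. The closest neighbours in it were MT1E and MT1G, which differed by 0.30 to 1.28 on the log2 scale within a library. In EZHi their mean difference of 0.52 was about as large as their own spread between libraries (SD of 0.50 for MT1E and 0.43 for MT1G), and that of MT1X and MT1M, 0.67, was larger than the SD of 0.36 for MT1X. With EZHi the levels were 118 ± 36.4 estimated FPKM (SD, n = 4) for MT2A, 33.4 ± 12.2 (SD, n = 4) for MT1E, 23.0 ± 6.78 (SD, n = 4) for MT1G and 10.8 ± 2.03 (SD, n = 4) for MT1F. MT1X was then at 0.572 ± 0.14 (SD, n = 4) and MT1M at 0.351 ± 0.015 (SD, n = 4). MT2A made up 64.1 ± 3.50% (SD, n = 4) of the summed estimated FPKM of the 7 metallothionein genes in vehicle and 62.5 ± 1.84% (SD, n = 4) in EZHi.

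Near-identical copies can share reads, which touches these levels. At a word length of 150 bases, the length of a read, 0% of the words in the annotated transcripts of MT1A, MT1E, MT1F, MT1G, MT1M, MT2A and MTF1 occurred in transcripts of another gene. For MT1X it was 8.78%, and 18.6% of its exonic bases were shared with ENSG00000259827, an overlapping gene on the same strand that has no row in the table. Reads that cannot be assigned to a single gene may go uncounted. The level, rank and share of MT1X may therefore be understated, which was not tested. At a word length of 50 bases the share rose to 18.7% for MT1X, 18.2% for MT1M and 16.4% for MT1G, so that assignment of short stretches of these genes is less certain. Exact words do not cover reads that differ by a few bases.

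Across 20153 genes tested with limma, 8.85% were called higher and 4.27% lower in EZHi (adjusted p under 0.05). Of the 7 genes of the set, 1 was called higher, MT1M, and 0 lower, which is close to the background of 13.1% called in either direction. Among the others MT1F came closest to the threshold, with an adjusted p in limma of 0.0502. The median log2 fold change of the 6 metallothioneins of the set was -0.0059, beside -0.0077 over all genes tested. Libraries of equal replicate number in the titles were taken as pairs, on the correlations given under processing, since the labels do not state a pairing. With the replicate number as a block, 30% of all genes were called, 14.9% higher and 15.1% lower, and 2 of the 7 genes were called higher, MT1F and MT1M. A higher value in all 4 pairs was found for 2 of the 7 genes, MT1F and MT1M, and for 20.6% of all genes. A lower value in all 4 pairs was found for 0 of the 7 and for 24.2% of all genes. Groups were separate for 1 gene of the 7, MT1M, whose EZHi libraries were all above its floor value in vehicle, beside 10.7% of all genes with EZHi higher, 7.93% with EZHi lower and 18.6% in either direction.

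MT2A (ENSG00000125148, GRCh38 chromosome 16, 56608584 to 56609497, plus strand, protein-coding), a widely expressed isoform, had log2 values of 11.51, 11.94, 11.44 and 11.55 in vehicle replicates 1 to 4. In EZHi replicates 1 to 4 they were 11.55, 12.09, 11.18 and 11.26. The groups overlapped, and replicate 2 was the highest library and replicate 3 the lowest in each of them. The log2 fold change was -0.09 ± 0.19 (SE, adjusted p in limma 0.83), and its 95% interval ran from -0.52 to 0.34. The pairs split, with 2 higher and 2 lower in EZHi. The sign of this small difference turned with quantile normalization, to 0.029, and with libraries centred on abundant genes, to 0.0077.

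MT1E (ENSG00000169715, 56625475 to 56627112, plus strand) had log2 values of 9.88, 10.15, 9.67 and 9.81 in vehicle and of 9.78, 10.32, 9.17 and 9.41 in EZHi, in the order of replicates. The EZHi libraries lay on both sides of the vehicle libraries, with a range of 1.16 against 0.48. The log2 fold change of -0.21 ± 0.22 (SE) was not called (adjusted p in limma 0.611, and 0.154 with the replicate block), and it ranged from -0.43 (without EZHi replicate 2) to -0.040 (without EZHi replicate 3).

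MT1G (ENSG00000125144, 56666730 to 56668065, minus strand) is the one gene of the cluster measured here that is transcribed from the opposite strand. Its log2 values were 9.41, 8.87, 9.26 and 8.77 in vehicle and 9.47, 9.58, 8.74 and 8.83 in EZHi. Its pairs ran from -0.53 in replicate 3 to 0.71 in replicate 2, around a log2 fold change of 0.08 ± 0.22 (SE, adjusted p in limma 0.874). Without EZHi replicate 2 the difference was -0.066. MT1X (ENSG00000187193, 56682470 to 56684196, plus strand) had log2 values of 4.15, 3.83, 4.08 and 3.74 in vehicle and of 4.02, 4.26, 3.49 and 3.59 in EZHi. It was higher in 1 of 4 pairs, and its log2 fold change of -0.11 ± 0.18 (SE) was not called (adjusted p in limma 0.76). For both genes the spread between libraries of a group exceeded the difference between groups.

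The 2 genes with the largest differences lie side by side in the cluster order of those measured. MT1A (ENSG00000205362, 56638666 to 56640087, plus strand), a low-abundance isoform in these cells, had log2 values of 5.08, 5.61, 5.52 and 5.07 in vehicle and of 6.40, 6.35, 5.97 and 6.19 in EZHi. Every EZHi library was above every vehicle library. It rose by 0.90 ± 0.16 (SE, log2 scale), a fold of 1.87 (adjusted p in limma 0.00461), with single pairs from 0.44 to 1.31, and it was called in all 8 leave-one-out fits. In estimated FPKM it went from 1.59 ± 0.31 (SD, n = 4) to 2.94 ± 0.39 (SD, n = 4).

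MT1F (ENSG00000198417, 56657731 to 56660698, plus strand) had log2 values of 7.85, 7.35, 7.65 and 7.34 in vehicle and of 8.25, 8.38, 7.75 and 8.01 in EZHi. The groups overlapped by EZHi replicate 3, which lay below vehicle replicate 1, while all 4 pairs were higher in EZHi, from 0.099 to 1.03. The log2 fold change was 0.55 ± 0.16 (SE), with a 95% interval from 0.19 to 0.90. It narrowly missed the threshold without the block (adjusted p in limma 0.0502) and passed it with the replicate block (adjusted p in limma 0.0124). It also passed without EZHi replicate 3 (log2 fold change 0.66, adjusted p 0.0208) and without vehicle replicate 1 (0.65, adjusted p 0.0369), and with centring on abundant genes (0.64, adjusted p 0.0203). The other 6 leave-one-out fits missed the threshold, with adjusted p from 0.0627 to 0.132.

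MT1M (ENSG00000205364, 56632659 to 56633981, plus strand) had a log2 value of 2.88 in each of the 4 vehicle libraries, which differed by only 0.0080. Counted reads vary more than this, so the vehicle value is taken as the floor that the regularized log gives a gene with almost no reads. In EZHi it was at 3.25, 3.11, 3.13 and 3.18, above every vehicle library. A range under 0.02 between vehicle libraries was found for 126 of the genes tested, of which 19 were called higher and 1 lower. Its log2 fold change was 0.29 ± 0.07 (SE, adjusted p in limma 0.0293), which is a difference from that floor, and it was 0.11 with the pseudocount of 0.5 estimated FPKM. The call was kept in 1 of the 8 leave-one-out fits, the fit without EZHi replicate 2, and the adjusted p reached 0.0784 without EZHi replicate 1. It was also lost with quantile normalization (log2 fold change 0.10, adjusted p 0.397).

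**Figure D1:**
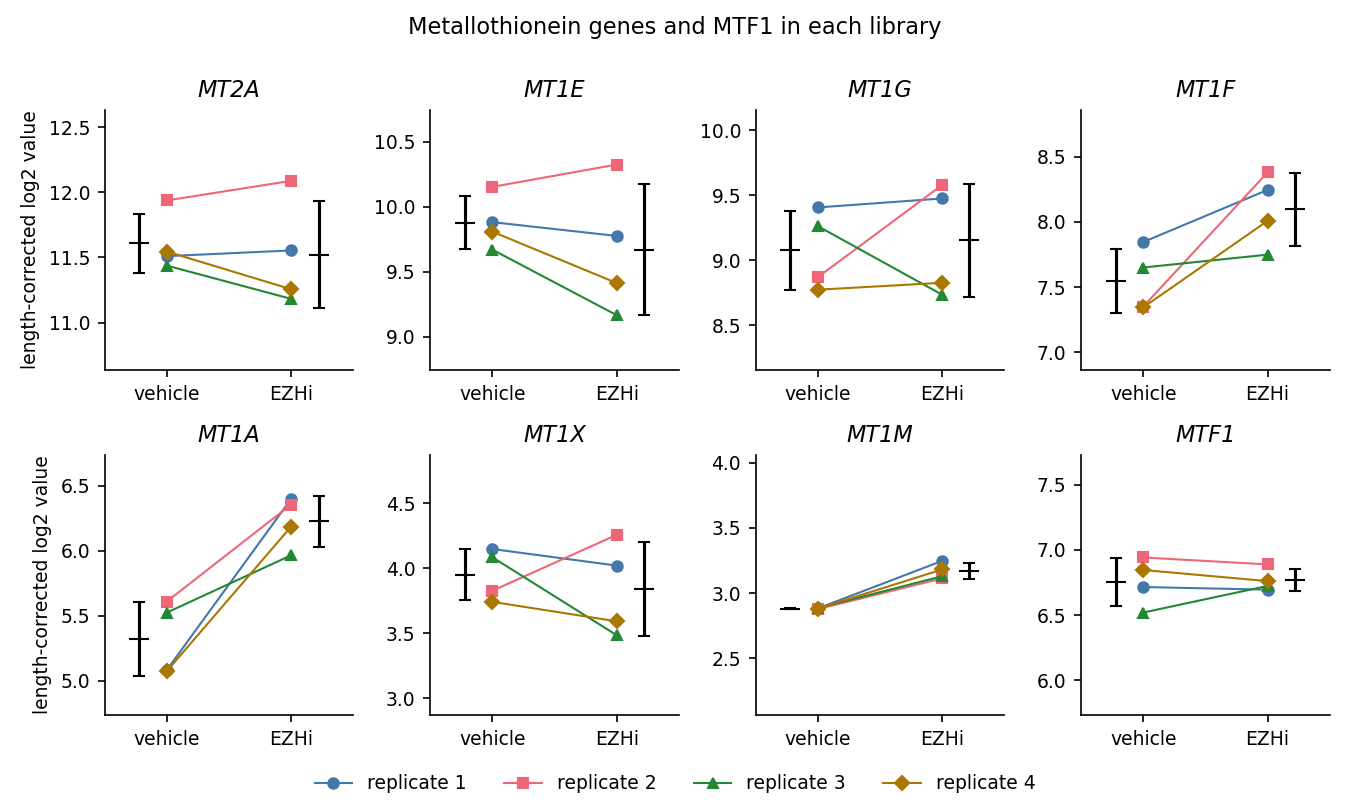
Length-corrected log2 value (vertical axis, every panel spans the same width on the log2 scale) of each gene in vehicle and EZHi libraries, with a line joining libraries of equal replicate number and black bars giving mean ± SD (n = 4). MT1A rises from 5.32 to 6.23 with separate groups, MT1F is higher in 4 of 4 pairs, MT1M leaves a common value of 2.88, and lines cross or diverge for MT2A, MT1E, MT1G and MT1X.

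**Figure D2:**
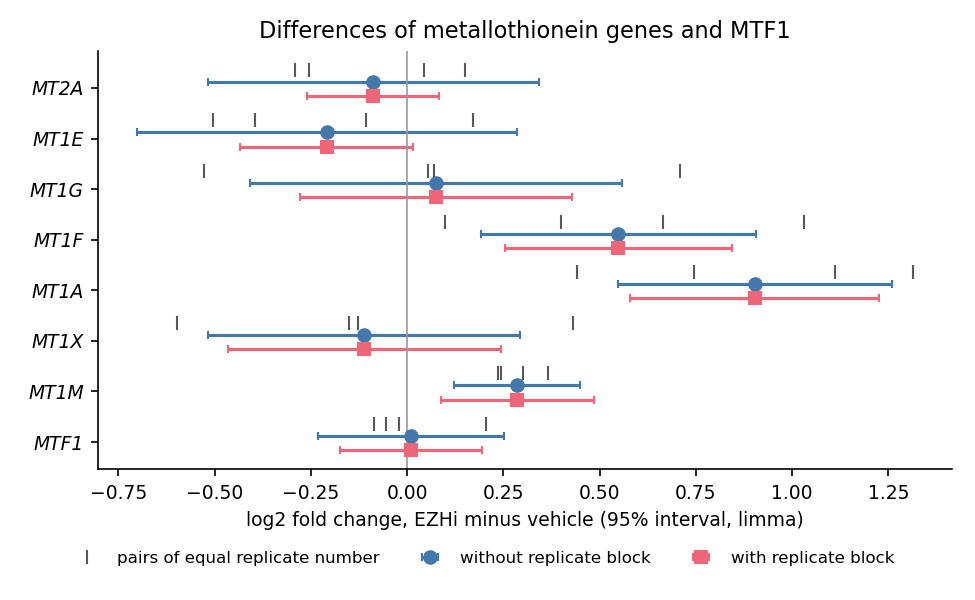
Log2 fold change, EZHi minus vehicle (horizontal axis), with 95% limma intervals without and with the replicate block, and ticks for the single pairs. Intervals of MT1A, MT1F and MT1M lie above 0 in both fits, and those of MT2A, MT1E, MT1G, MT1X and MTF1 include 0. The intervals are not adjusted for the number of genes tested. MT1F was not called without the block (adjusted p in limma 0.0502), and the MT1M difference is from its floor value.

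MTF1 (ENSG00000188786, chromosome 1, 37809574 to 37859592, minus strand, protein-coding), the zinc-sensing activator of the family, stood at 4.25 ± 0.53 estimated FPKM (SD, n = 4) for vehicle against 4.26 ± 0.26 (SD, n = 4) for EZHi. Its log2 values were 6.72, 6.94, 6.52 and 6.85 in vehicle and 6.70, 6.89, 6.72 and 6.76 in EZHi, so that the EZHi libraries fell inside the range of the vehicle libraries. The log2 fold change was 0.01 ± 0.11 (SE), with a 95% interval from -0.23 to 0.25 (adjusted p in limma 0.967), and 1 of 4 pairs was higher. Its sign turned to -0.087 with quantile normalization. The measurement is of its transcript, whereas zinc acts on the protein.

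Several metallothioneins were high and low in the same replicates of a group. In EZHi, 5 of the 6 metallothioneins of the set were highest in replicate 2 and lowest in replicate 3, the exception being MT1M, which was highest in replicate 1 and lowest in replicate 2. In vehicle, MT2A and MT1E were highest in replicate 2 and lowest in replicate 3, while MT1F, MT1G and MT1X were highest in replicate 1 and lowest in replicate 4. The hepatocyte gene ALB ran the other way, lowest in replicate 2 (17.29 in vehicle and 17.20 in EZHi) and highest in replicate 3 (18.78 and 18.37). FGB, another hepatocyte marker, had a different order, highest in replicate 4 of both groups (11.70 in vehicle and 12.60 in EZHi). It was lowest in replicate 2 of vehicle (11.14) and in replicate 1 of EZHi (12.20). Replicate orders of the remaining markers are not given here. Over all genes tested, replicates 2 and 3 lay at opposite ends of the second principal component, an axis of variation between libraries, in both groups. It held 23.8% of the variance, with values of 23.3 and -30.2 in vehicle and of 22.5 and -25.6 in EZHi. The share of all genes with the same order of replicates was not counted. The part of such shared variation in the metallothionein values was not tested beyond the block. The summed estimated FPKM of the 7 metallothionein genes was 189, 225, 175 and 177 in vehicle replicates 1 to 4 and 196, 267, 141 and 154 in EZHi. The sums of EZHi spread to both sides of those of vehicle, with means of 190 ± 56.9 (SD, n = 4) in EZHi and 191 ± 23.2 (SD, n = 4) in vehicle.

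Values were then set relative to MT2A in the same library. This step narrowed the spread between vehicle libraries for MT1E and MT1A, and widened it for MT1F, MT1G, MT1X and MT1M. Between EZHi libraries it narrowed the spread for MT1E, MT1F, MT1G and MT1X, and widened it for MT1A and MT1M. MT1A lay below MT2A in every library, with log2 differences of -6.43, -6.33, -5.91 and -6.47 in vehicle replicates 1 to 4 and of -5.16, -5.73, -5.22 and -5.07 in EZHi. Every EZHi library was closer to MT2A than any vehicle library. Its share of the summed estimated FPKM was 0.83 ± 0.146% (SD, n = 4) for vehicle against 1.61 ± 0.288% (SD, n = 4) for EZHi. MT1F lay at -4.06 ± 0.42 (SD, n = 4) relative to MT2A in vehicle and at -3.42 ± 0.20 (SD, n = 4) in EZHi, with 4 of 4 pairs higher, and its share was 3.92 ± 0.884% (SD, n = 4) and 5.86 ± 0.707% (SD, n = 4). MT1E kept close to MT2A, at -1.73 ± 0.07 (SD, n = 4) and -1.85 ± 0.11 (SD, n = 4). Differences in response between metallothionein genes were described in this way and were not tested.

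Zinc transporters were examined next, since they set the zinc that reaches metallothioneins. Of 7 SLC30A exporters tested, 1 was called higher and 0 lower, and of 11 SLC39A importers tested 1 was called higher and 1 lower. Over all genes tested, 8.85% were called higher and 4.27% lower. The median log2 fold change was -0.0034 for the exporters and 0.029 for the importers. SLC39A8 (ZIP8), a plasma membrane importer of zinc, manganese and cadmium, had log2 values of 3.23, 3.86, 3.21 and 3.40 in vehicle and of 6.34, 6.29, 5.99 and 5.77 in EZHi. It rose by 2.67 ± 0.18 (SE, log2 scale, adjusted p in limma 1.6e-05), from 0.427 to 2.71 estimated FPKM, and every EZHi library was far above every vehicle library. With the pseudocount of 0.5 estimated FPKM its rise was 1.78. SLC30A3 (ZnT3), known for loading zinc into synaptic vesicles, had values of 7.76, 7.76, 7.17 and 7.48 in vehicle and of 9.19, 9.30, 9.11 and 9.10 in EZHi, and rose by 1.63 ± 0.13 (SE, adjusted p in limma 3.8e-05). Both were called in all 8 leave-one-out fits.

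SLC39A14 (ZIP14), a hepatocyte importer of zinc, iron and manganese and the most abundant transporter of these lists, was at 13.32 ± 0.02 (SD, n = 4) for vehicle against 13.06 ± 0.09 (SD, n = 4) for EZHi. It fell by 0.26 on the log2 scale (adjusted p in limma 0.0259), a call kept in 1 of the 8 leave-one-out fits and lost with quantile normalization and with centring on abundant genes. SLC30A1 (ZnT1), which exports zinc at the plasma membrane, had a log2 fold change of 0.07 ± 0.09 (SE, adjusted p in limma 0.677), and its log2 values of 8.10 to 8.33 in vehicle overlapped those of 8.12 to 8.38 in EZHi. The remaining transporters had log2 fold changes from -0.18 (SLC30A7) to 0.29 (SLC39A5). SLC30A10 (log2 fold change 0.27, adjusted p in limma 0.0434) and SLC39A5 (0.29, 0.00452) were called higher with the replicate block. That fit gave 2 exporters higher and 0 lower, and 2 importers higher and 1 lower, beside 14.9% of all genes higher and 15.1% lower.

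Genes of copper handling, which metallothioneins also buffer, were compared likewise. Of 15 tested, 1 was called higher and 0 lower, with a median log2 fold change of 0.0081, and with the replicate block 2 were higher and 3 lower. The shares over all genes were 8.85% higher and 4.27% lower, and with the block 14.9% and 15.1%. The called gene was CCS, the copper chaperone of superoxide dismutase, at 9.69 ± 0.20 (SD, n = 4) for vehicle against 10.03 ± 0.08 (SD, n = 4) for EZHi, with a log2 fold change of 0.34 (adjusted p in limma 0.0473). None of the 8 leave-one-out fits kept this call, and without vehicle replicate 2 the log2 fold change was 0.25.

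Glucocorticoid-responsive genes were followed because dexamethasone was in the medium and metallothioneins respond to it. Of 15 tested, 0 were called higher and 3 lower, with a median log2 fold change of -0.057, and with the replicate block 4 were higher and 6 lower. Among all genes tested, 8.85% were higher and 4.27% lower, and with the block 14.9% and 15.1%. ERRFI1, a feedback inhibitor of EGF receptors, fell by 0.66 on the log2 scale (adjusted p in limma 0.00381), CEBPD, an acute-phase transcription factor, fell by 0.76 (0.0206), and NFKBIA, the inhibitor of NF-kB, fell by 0.27 (0.0406). CEBPD kept its call in 5 of the 8 leave-one-out fits and NFKBIA in 1. NFKBIA also lost its call with quantile normalization (-0.15, adjusted p 0.218), with centring on abundant genes (-0.17, adjusted p 0.149) and without the prior trend (adjusted p 0.0636). NR3C1, the glucocorticoid receptor, had a log2 fold change of -0.09 ± 0.07 (SE, adjusted p in limma 0.44). FKBP5, a classical receptor target, had a log2 fold change of -0.35 (adjusted p 0.168) and was called lower with the block (adjusted p 0.000623). PCK1, a gluconeogenic enzyme, had a log2 fold change of 1.08 (adjusted p 0.201) and was called higher with the block (adjusted p 0.000166), so that calls with the block went in both directions.

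Genes that respond to metals, heat or oxidants were the last list. Of 13 tested, 0 were called higher and 1 lower, with a median log2 fold change of -0.12, and with the replicate block 1 was higher and 6 lower. Beside this stand 8.85% of all genes higher and 4.27% lower, and with the block 14.9% and 15.1%. HSF1, the master regulator of the heat shock response, was at 10.56 ± 0.04 (SD, n = 4) for vehicle against 10.26 ± 0.06 (SD, n = 4) for EZHi, and fell by 0.29 on the log2 scale (adjusted p in limma 0.00753), a call kept in all 8 leave-one-out fits and lost with quantile normalization (adjusted p 0.0535). HMOX1, the haem oxygenase induced by metals, was higher in 4 of 4 pairs by a mean of 0.27 (adjusted p in limma 0.126, and 0.00179 with the replicate block). A higher value in all 4 pairs was found for 20.6% of all genes. SLC7A11, the cystine importer, had a log2 fold change of -0.69 (adjusted p 0.0565, and 0.000597 with the replicate block).

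**Figure D3:**
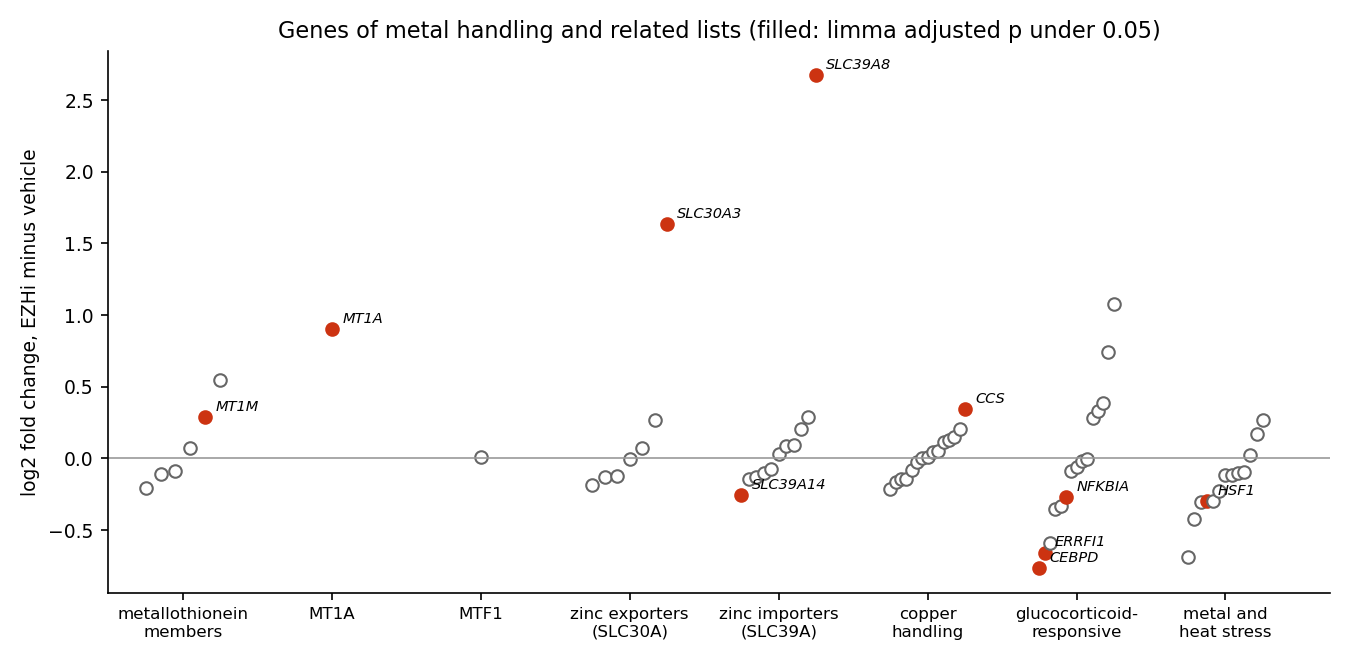
Log2 fold change, EZHi minus vehicle (vertical axis), of every tested gene of each list, where filled points passed an adjusted p of 0.05 in limma without the block and are named. SLC39A8 at 2.67 and SLC30A3 at 1.63 stand above the highest metallothionein, MT1A at 0.90, and MTF1 is at 0.01.

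The metallothionein genes of this table lie together on chromosome 16, and genes within 500 kb on either side were compared with them. Of 22 such genes, 17 were tested, of which 2 were called higher and 2 lower, and with the replicate block 3 were higher and 5 lower. Shares over all genes tested were 8.85% higher and 4.27% lower, and with the block 14.9% and 15.1%. GNAO1, a G protein subunit of neurons, rose by 1.06 ± 0.17 (SE, log2 scale, adjusted p in limma 0.00261) from a low level, 0.231 to 0.479 estimated FPKM, and by 0.42 with the pseudocount of 0.5 estimated FPKM, and CETP, the cholesteryl ester transfer protein, rose by 0.73 ± 0.18 (SE, adjusted p 0.0228). NUP93, a subunit of the nuclear pore, fell by 0.27 (adjusted p 0.0317). CETP kept its call in 4 of the 8 leave-one-out fits and NUP93 in 3. NUP93 also lost its call with quantile normalization (-0.15, adjusted p 0.18), with centring on abundant genes (-0.18, adjusted p 0.126) and without the prior trend (adjusted p 0.0528), and CETP with quantile normalization (0.60, adjusted p 0.0551). BBS2, the nearest tested gene before MT2A, had a log2 fold change of -0.02 (adjusted p 0.938), and NUP93-DT, the nearest one after MT1X, one of 0.11 (0.605).

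**Figure D4:**
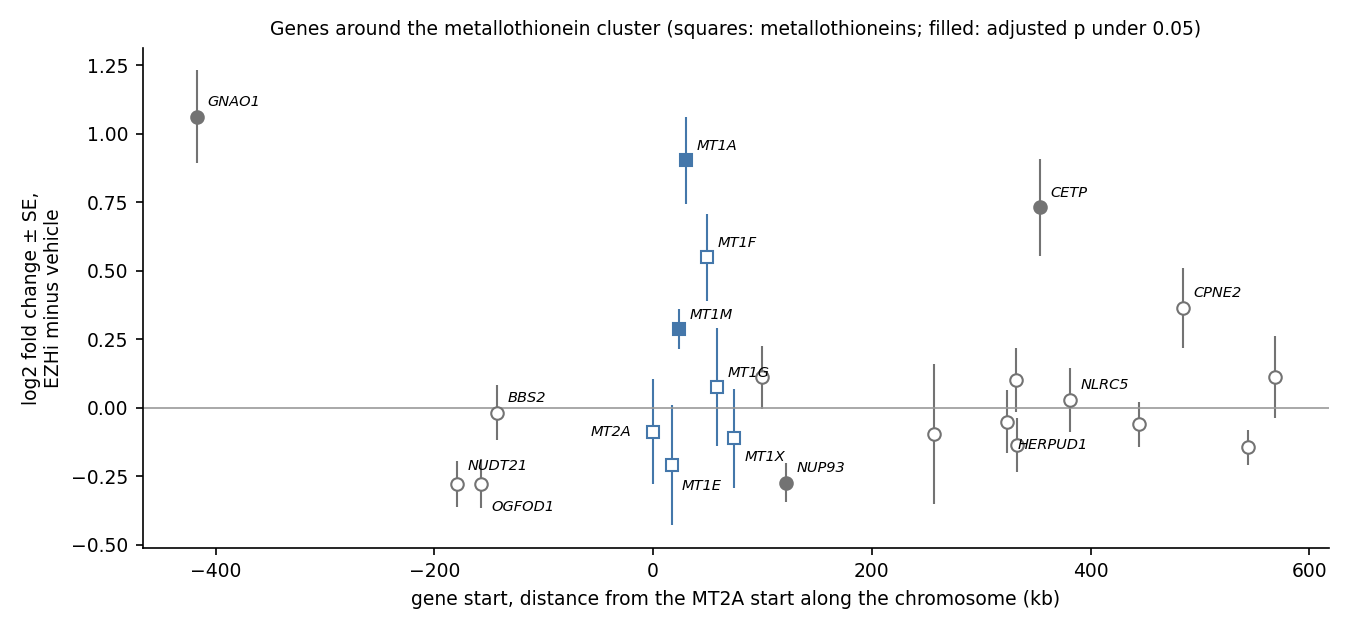
Log2 fold change ± SE, EZHi minus vehicle (vertical axis), against the distance of each gene start from the MT2A start along the chromosome in kb (horizontal axis), with squares for metallothioneins, circles for the tested neighbours but 1 and filled symbols for genes with an adjusted p under 0.05. MT1A at 0.90 and MT1M at 0.29 are filled inside the cluster, while MT2A, MT1E, MT1G and MT1X straddle 0.

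The 5 genes outside the family whose profile over 8 libraries was most like the mean profile of the 6 metallothioneins were DPY19L2P3, CKMT1A, IGFL2, CCDC116 and MAGT1. Their mean absolute differences from it, after centring each gene on its mean, were 0.078 to 0.083 on the log2 scale, against a median of 0.22 over all genes and a range of 0.72 within the profile itself. Of these, MAGT1 was at 41.1 estimated FPKM, and the other 4 were under 0.5. None was called (adjusted p in limma from 0.37 to 0.949). These genes were picked for likeness to a profile that differs little between groups. Their lack of calls was therefore largely set by the choice and is no result about them.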

How the data were processed

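Reads had been aligned to hg38 by the authors with HISAT2 (2.2.1 in the submitters' processing notes) and counted per gene over exons without regard to strand with HTSeq (0.9.1) at a minimum alignment quality of 10. The authors then removed genes with very few reads and applied the regularized log of DESeq2 (1.40.2) with a correction for mean transcript length, whose form was inferred here from the values. The deposited table, although named as FPKM, holds log2 values from -6.81 to 19.01. The regularized log understates changes of genes with few reads, and unstranded counting can mix overlapping genes.

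One duplicate row was dropped. Coordinates and lengths came from GENCODE release 44 (GRCh38). Estimated FPKM was the antilog of a value divided by 25.6, a constant set by the mean size of the normalized libraries. The 20153 genes whose mean estimated FPKM reached 0.1 entered a limma fit (R 4.3.3, limma 3.58.1) of group alone with a trended prior, with two-sided tests and p-values adjusted by Benjamini-Hochberg over all of them. Deviations from group means correlated at 0.22 to 0.63 between libraries of equal number and at -0.58 to 0.20 otherwise, so the numbers of the sample titles were taken to pair the libraries, and a fit with the replicate block was run as an alternative. P-values measure the spread between these libraries, all from one cell line.

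Members and lists were chosen with earlier results of these data known. Named genes were all members, all other metallothionein loci in the table, SLC30A1 and NR3C1, up to 4 called genes with the largest change per list, and the 5 genes of most similar profile, of which 1 neighbour of the cluster is not reported here. Others named in the text (FKBP5, PCK1, HMOX1, SLC7A11, SLC30A7, SLC30A10, SLC39A5, BBS2, NUP93-DT and marker genes) were chosen after their values were seen.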

Additional observations from a re-analysis of the deposited data

Results flagged for a closer look

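Each group of 4 libraries was examined for a library far from the others by Dixon's ratio of gap to range at the 95% level. Of 58 groups of values 1 passed, where chance gives about 2.9. It was CCS, the copper chaperone, with a log2 value of 9.397 in vehicle replicate 2 against 9.76 to 9.81 elsewhere in vehicle, a ratio of 0.868. No metallothionein value and no value of MTF1 was among those that passed.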

How the results depend on the processing

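The count of called genes was 2644, 6051 with the replicate block, which included all 2644, and 1579 at a filter of 1 estimated FPKM. It was 1811 (without EZHi replicate 4) to 2571 (without vehicle replicate 3) over the fits that left out one library. Higher genes were 67.5% of the called genes, 88.9% with centring on genes of at least 10 estimated FPKM, 49.6% with the replicate block and 49.4% at a filter of 1. Centring moved the median log2 fold change of all genes from -0.0077 to 0.088, and quantile normalization to -0.060.

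Of the metallothioneins and MTF1, 1 gene was called. The count was 2 with the replicate block and with centring, 0 at a filter of 1 estimated FPKM, which removed MT1M and MT1X, and 0 with quantile normalization. It was 0 to 1 when one library was left out. MT1A kept its direction and call under all 15 alternatives. MT1F kept its direction in 15 and passed the threshold in 4. MT1M kept its direction in the 14 that could be run and lost its call in 8.

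With the replicate block, which called 30% of all genes tested, 2 of 7 zinc exporters and 5 of 15 copper genes were called. So were 10 of 15 glucocorticoid-responsive genes, 7 of 13 stress genes, 4 of 8 hepatocyte markers and 8 of 17 neighbours of the cluster. Without a low-value filter there were 2 zinc exporters and 0 copper genes, and without the prior trend 0 copper genes. With quantile normalization there were 1 zinc importer, 2 stress genes and 2 neighbours, and with centring 1 zinc importer and 2 stress genes. At a filter of 1, 0 other cell type markers were called. Leaving out one library gave 1 to 1 zinc exporters, 1 to 2 zinc importers, 0 to 1 copper genes, 1 to 3 glucocorticoid-responsive genes, 1 to 2 stress genes, 1 to 2 hepatocyte markers and 2 to 4 neighbours.

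Signs of genes that were not called turned for MT2A (0.02863 with quantile normalization, 0.007694 with centring), MTF1 (-0.08672 with quantile normalization), NR3C1 (0.00684 with centring), DPY19L2P3 (0.07807 with centring) and CCDC116 (-0.1755 with quantile normalization). Leaving out one library moved MT1G between -0.066 and 0.22, MT1X between -0.25 and 0.0062, MT2A between -0.28 and 0.025, MTF1 between -0.068 and 0.074, DPY19L2P3 between -0.10 and 0.074, CCDC116 between -0.049 and 0.10 and MAGT1 between -0.040 and 0.092. The cause of these changes was not tested. Depth is unknown, so no limit from counting error can be given.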
